A study of Mus musculus with 6 samples.

Results

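Expression of 9 genes of the endothelial surface and of sprouting vessels was followed across 6 RNA-seq libraries of mouse lung endothelial cells that differ in the prelamin A protease gene Zmpste24. The 9 were taken by symbol from a deposited table of 53735 genes and fall into 5 genes of sprouting tip cells (Esm1, Apln, Aplnr, Cxcr4 and Kcne3) and 4 genes of the endothelial surface (Plvap, Cd34, Emcn and Cd93). Testing required an average of 10 normalized counts or more, which 15229 genes reached, and all 9 were among them. The groups were wild type mice (ZMPSTE24 wt, 2 libraries) and knockout mice (ZMPSTE24 ko, 4 libraries); the labels used here state no age, sex or strain of the mice and do not say which exons are lost. Both groups share one handling: lung cells were selected on magnetic beads, by CD31 and by ICAM2, grown once to confluence on gelatin, left untreated and sequenced from poly(A) RNA. The libraries came from 2 cohorts of mice, and no label ties a library to a cohort or to an animal, so the p-values measure only how far these libraries differ from each other, which may be technical.

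Tip cells lead a growing vessel sprout, and stalk cells follow them and form its lumen. VEGF signalling raises tip cell genes such as Esm1, Apln, Cxcr4 and Angpt2, and Notch signalling, started by the ligand Dll4 on the tip cell, restrains them in the neighbouring stalk cells. Plvap forms the thin diaphragms that close caveolae and fenestrae of the capillary wall, whereas Cd34 and Emcn are heavily glycosylated sialomucins and Cd93 is a C-type lectin-like receptor, all of which face the blood or the neighbouring cell.

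The libraries held from 32699024 to 45613685 reads assigned to genes. They fell into separate sets on the first principal component of gene expression, computed without the 9 genes and without the other gene lists used here, which held 77.0% of the variance over 15077 genes. Set 1 is wild type 1 with knockout 1, and set 2 is wild type 2 with knockouts 2, 3 and 4, numbered as in the library titles. These sets are defined from the data, may or may not be the cohorts, and hold each genotype, so differences are given within the sets as well as pooled. Zmpste24 itself read 5503 and 4148 normalized counts in wild types 1 and 2 and 5079, 3764, 3599 and 3720 in knockouts 1 to 4. Reads outside a deleted part would still be counted, so these levels do not check the labels. Summed over 15 pan-endothelial genes, endothelial markers read 42651 to 185899 normalized counts. Among these genes, Pecam1 read 7429 to 30000 and Cdh5 13135 to 62133. Icam2, the other marker of the bead selection, read 596 to 2440. The epithelial marker Epcam stayed between 1.03 and 6.06, but summed epithelial markers read 756 to 1220. Among them, Krt8 read 266 to 939 and Sftpb 0 to 280. Summed fibroblast markers nevertheless reached 405670 to 479067, summed smooth muscle and pericyte markers 68669 to 243350, summed mesothelial markers 8574 to 63232, and summed macrophage and leukocyte markers 4232 to 47336, of which the lymphocyte markers Cd3e and Nkg7 were at 0 throughout. The part of other cell types in the results was not tested.

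The genes lie apart in the genome (GENCODE annotation of GRCm38). Esm1 spans chr13:113209659-113218098 on the plus strand, Apln chrX:48025146-48034853 on the minus strand, Aplnr chr2:85136225-85139923 on the plus strand, Cxcr4 chr1:128588199-128592293 on the minus strand and Kcne3 chr7:100176502-100184869 on the plus strand. Plvap spans chr8:71497765-71511752 on the minus strand, Cd34 chr1:194938819-194961279 on the plus strand, Emcn chr3:137341067-137432185 on the plus strand and Cd93 chr2:148436640-148443563 on the minus strand. No source used here says whether reads were counted by strand. Overlap could therefore matter for Plvap, whose span overlaps that of Gtpbp3 on the other strand (817 to 1227 normalized counts). The same holds for Kcne3 and Cd34, which each overlap an antisense gene. These spans include introns, and whether exons overlap was not checked. Esm1 overlaps Gzmk, which was at 0 in every library, and the other 5 overlap no annotated gene.

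The RefSeq promoter table (GRCm38.p6) matched 6 of the 9 genes with 7 promoters. The 250 bases before the start site are shown for the genes whose values differ most between the libraries or run in opposite directions: Esm1 (chr13:113209409-113209658, plus strand), Emcn (chr3:137340828-137341077, plus strand), Cd34 (chr1:194938571-194938820, plus strand) and Cxcr4 (chr1:128592300-128592549, minus strand). Each is written 5′ to 3′ on the strand of its gene, with matches to the searched motifs in capitals.
Esm1: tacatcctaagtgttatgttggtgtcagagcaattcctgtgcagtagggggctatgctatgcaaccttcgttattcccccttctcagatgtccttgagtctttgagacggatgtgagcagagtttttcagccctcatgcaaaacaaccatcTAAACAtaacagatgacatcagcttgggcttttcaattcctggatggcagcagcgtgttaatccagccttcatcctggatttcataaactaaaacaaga
Emcn: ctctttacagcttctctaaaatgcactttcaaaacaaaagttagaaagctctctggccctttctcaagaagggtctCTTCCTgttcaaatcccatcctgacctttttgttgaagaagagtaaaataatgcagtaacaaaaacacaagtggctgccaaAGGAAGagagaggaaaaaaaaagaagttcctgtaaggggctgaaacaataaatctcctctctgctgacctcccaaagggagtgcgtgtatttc
Cd34: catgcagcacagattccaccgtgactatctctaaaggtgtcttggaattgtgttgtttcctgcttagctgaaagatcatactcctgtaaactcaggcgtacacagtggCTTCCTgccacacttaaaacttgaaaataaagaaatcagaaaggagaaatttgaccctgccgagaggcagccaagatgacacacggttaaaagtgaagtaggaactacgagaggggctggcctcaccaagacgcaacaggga
Cxcr4: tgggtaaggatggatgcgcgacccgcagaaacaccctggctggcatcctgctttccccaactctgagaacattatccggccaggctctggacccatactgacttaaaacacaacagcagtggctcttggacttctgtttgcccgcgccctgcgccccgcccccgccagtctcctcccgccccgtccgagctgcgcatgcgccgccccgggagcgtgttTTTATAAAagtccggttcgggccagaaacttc

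6 motifs were searched on both strands. The ETS core AGGAAG, read by the ETS factors that act in endothelial genes, is the capital run of Emcn (93 and 174 bases before the start) and of Cd34 (142 bases before), and it also occurs in Apln and Kcne3. It was held by 29.5% of 32851 promoters of the same length, so 4 of the 6 matched genes stand beside a common motif. The forkhead core TGTTTA is the capital run of Esm1, on the reverse strand 99 bases before its start, and 12% of promoters hold it. The capitals of Cxcr4 are overlapping matches, on opposite strands, to the TATA box TATAAA at 30 and 32 bases before its start, a motif in 12.4% of promoters. Kcne3 alone of the 6 held the hypoxia core ACGTG (16.6% of promoters), the RBPJ core TGGGAA of Notch signalling (21.6%) and the AP-1 site TGANTCA (6.75%). It was also the only gene of the 6 with more than a single promoter searched. Its RBPJ core lay in a different promoter from its hypoxia core and AP-1 site, and the shares are per promoter. The printed promoters of Esm1, Emcn and Cd34 had 44%, 40.8% and 46.4% G and C, below the median of 52.4% over all promoters, and that of Cxcr4 had 61.2%. These matches describe the letters of the windows and are not shown binding sites.

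To compare levels between genes, normalized counts were divided by the summed exon length. Plvap had the highest mean, 3595 ± 2455 normalized counts per kb (SD over the 6 libraries), followed by Emcn (2191 ± 2174), Cd93 (1522 ± 610), Cd34 (1061 ± 293), Cxcr4 (1003 ± 550), Esm1 (918 ± 1096) and Apln (709 ± 340). Kcne3 (166 ± 52.1) and Aplnr (37.5 ± 12.9), the receptor of Apln, were the lowest. From Plvap down to Apln, no mean differed from the next by more than the larger SD of the pair; Apln stood above Kcne3, and Kcne3 above Aplnr, by 1.59 and 2.47 such SDs and in 6 of 6 libraries. Plvap was also above Emcn in 6 of 6 libraries, but Emcn exceeded Cd93 in only 2.

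The level that varied most between libraries was that of Esm1, 14.2-fold between its highest and lowest library, followed by Emcn (9.59-fold) and Plvap (5.66-fold). Cxcr4 varied 4.13-fold, and Apln, Cd93, Aplnr, Kcne3 and Cd34 from 2.96-fold down to 1.96-fold. Wild type 1 had the highest level of 7 of the 9 genes and was above wild type 2 for all 9, by 1.19-fold for Cd34 to 5.65-fold for Emcn. For 4 genes, Esm1, Apln, Plvap and Emcn, both libraries of set 1 lay above all 4 of set 2. Over all tested genes, 30.7% lay that way and 32.7% the opposite way, so 4 of 9 is near the share of the whole table.

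**Figure D1:**
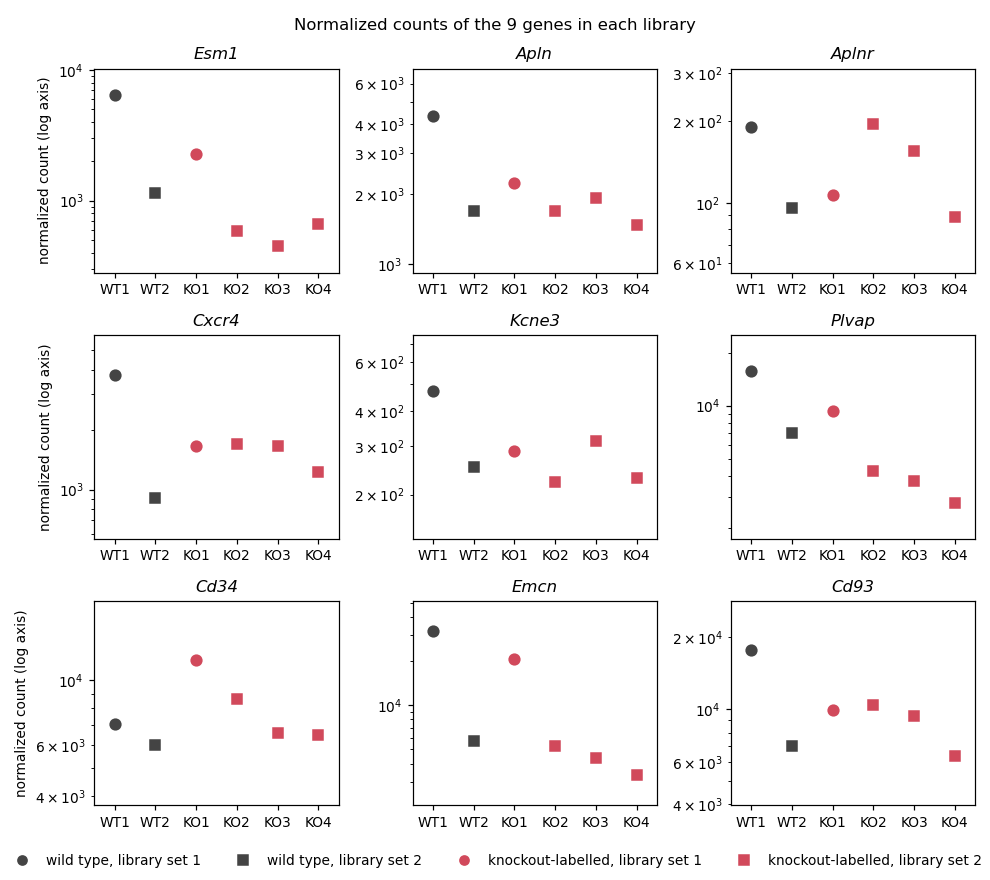
Normalized counts of each gene (vertical log axes, one panel per gene) in wild types 1 and 2 (WT1, WT2) and knockouts 1 to 4 (KO1 to KO4); colour is genotype and marker shape is library set, and each point is 1 library. Wild type 1 is the highest point for 7 genes, while Cd34 peaks in knockout 1 and Aplnr in knockout 2.

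Esm1 encodes endocan, a proteoglycan secreted by tip cells. It was lower in each knockout library than in the wild type library of its set. The normalized count was 6410 in wild type 1 and 2289 in knockout 1, and 1152 in wild type 2 against 584, 451 and 668 in knockouts 2, 3 and 4. The groups overlapped only because knockout 1 lay above wild type 2. Pooled, the means were 3781 ± 3718 for the wild type libraries (SD, n = 2) and 998 ± 865 for the knockout libraries (SD, n = 4). Within the sets the knockout libraries were 2.80-fold lower in set 1 and 1.97-fold, 2.55-fold and 1.72-fold lower in set 2, where the 3 differences share wild type 2. In bulk RNA, fewer cells of a type and less RNA per cell cannot be told apart, here and in the values that follow.

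Apln encodes apelin, the ligand made by tip cells, and Aplnr its G protein-coupled receptor. Apln read 4355 in wild type 1 and 2242 in knockout 1, and 1701 in wild type 2 against 1699, 1929 and 1470 in knockouts 2 to 4. In set 2 the knockout libraries thus lay on either side of wild type 2 and within 0.21 of it on the log2 scale, and the one wide gap was in set 1, where knockout 1 was lower by a log2 difference of -0.96. Aplnr read 191 and 95.6 in the wild types and 107, 194, 155 and 88.8 in the knockouts. Its groups overlapped fully, and its difference from the wild type of the set ran from -0.83 in knockout 1 to 1.02 in knockout 2. The pooled means were 3028 ± 1877 (SD, n = 2, wild type) and 1835 ± 330 (SD, n = 4, knockout) for Apln and 143 ± 67.1 and 136 ± 47.8 for Aplnr. Aplnr is also the gene with the fewest reads, and its counting error reached 11.0% of the value in the library with the fewest.

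Cxcr4, the receptor of the chemokine Cxcl12, went opposite ways in the library sets. The normalized count was 3738 in wild type 1 and 1652 in knockout 1, but 906 in wild type 2 against 1696, 1663 and 1223 in knockouts 2, 3 and 4. The 4 knockout libraries lay between the wild type libraries, which were the highest and the lowest of the 6. Against the wild type of its set, knockout 1 was 2.26-fold lower and knockouts 2, 3 and 4 were 1.87-fold, 1.84-fold and 1.35-fold higher. The pooled means, 2322 ± 2003 (SD, n = 2) and 1558 ± 224 (SD, n = 4), hide that difference of direction.

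Kcne3 encodes an accessory subunit of voltage-gated potassium channels. It read 471 in wild type 1 and 288 in knockout 1, and 251 in wild type 2 against 222, 311 and 229 in knockouts 2 to 4. The set 2 libraries were close, with log2 differences from wild type 2 of -0.18, 0.31 and -0.13. The pooled means were 361 ± 156 (SD, n = 2) and 262 ± 43.9 (SD, n = 4).

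Plvap was lower in the knockout libraries of both sets. The normalized count was 15814 in wild type 1 and 9302 in knockout 1, and 6992 in wild type 2 against 4245, 3713 and 2795 in knockouts 2, 3 and 4. All 3 knockout libraries of set 2 lay below both wild types, and knockout 1 lay between them. The log2 difference from the wild type of the set was -0.77 in knockout 1 and -0.72, -0.91 and -1.32 in knockouts 2, 3 and 4, so the gap in set 1 was within the range of those in set 2. The pooled means were 11403 ± 6238 (SD, n = 2) and 5014 ± 2921 (SD, n = 4).

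Emcn, an endothelial sialomucin, followed the library set more than the genotype. It read 32022 in wild type 1 and 20465 in knockout 1, and 5667 in wild type 2 against 5254, 4373 and 3340 in knockouts 2, 3 and 4. Every knockout library was below the wild type of its set, by log2 differences from -0.11 in knockout 2 to -0.76 in knockout 4. The gap between the wild types themselves, 5.65-fold, was wider than any of these, and the pooled means were 18845 ± 18636 (SD, n = 2) and 8358 ± 8109 (SD, n = 4).

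Cd34, the other sialomucin of the 9 and a ligand of selectins, was the one gene above the wild type of its set in all 4 knockout libraries. It read 7077 in wild type 1 and 11688 in knockout 1, and 5970 in wild type 2 against 8608, 6578 and 6478 in knockouts 2, 3 and 4. Knockouts 3 and 4 lay between the wild types, so the groups overlapped. The knockout libraries were 1.65-fold higher in set 1 and 1.44-fold, 1.10-fold and 1.09-fold higher in set 2. The pooled means were 6524 ± 782 (SD, n = 2) and 8338 ± 2439 (SD, n = 4).

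Cd93 read 17772 in wild type 1 and 9950 in knockout 1, and 7035 in wild type 2 against 10464, 9375 and 6367 in knockouts 2, 3 and 4. As with Cxcr4, knockout 1 was below its wild type (log2 difference of -0.84) while knockouts 2 and 3 were above theirs (0.57 and 0.41), and knockout 4 was slightly below (-0.14). The pooled means were 12403 ± 7592 (SD, n = 2) and 9039 ± 1836 (SD, n = 4).

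Read by library, 8 of the 9 genes were below wild type 1 in knockout 1, and 5, 3 and 7 were below wild type 2 in knockouts 2, 3 and 4. The 5 include Apln, which was nearly level at 1699 against 1701. Over all tested genes, 53.6%, 48.1%, 49.8% and 49.8% were below the wild type of the set in knockouts 1, 2, 3 and 4. The median log2 difference of the 9 was -0.83 in knockout 1 and -0.00, 0.18 and -0.14 in knockouts 2 to 4, while over all tested genes it was -0.02, 0.01, 0.00 and 0.00. A list of 15 general endothelial genes (Pecam1, Cdh5, Tie1, Tek and others, none of the 9) was read beside them. Its mean log2 difference from the wild type of the set was -0.71 in knockout 1, where 15 of 15 were below, 0.15 in knockout 2 (4 of 15 below), -0.13 in knockout 3 (10 of 15) and -0.60 in knockout 4 (15 of 15). All 4 knockout libraries lay below both wild types for 0 of 9 genes, against 2.32% of all tested genes. Esm1, Plvap and Emcn, 3 of 9, were below the wild type of their set in all 4 knockout libraries, as were 10.8% of all tested genes, and Cd34, 1 of 9, was above in all 4, as were 10.1%.

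**Figure D2:**
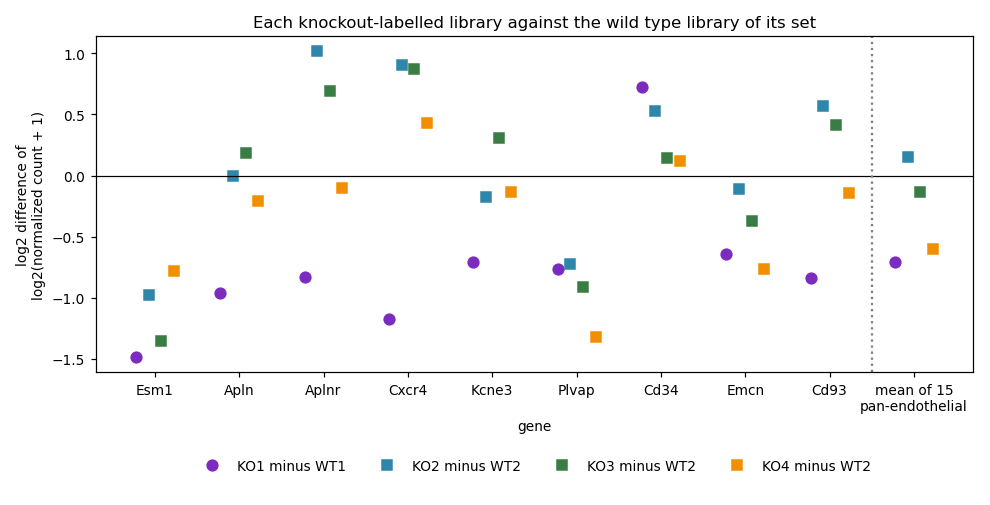
Difference of log2(normalized count + 1) between each knockout library and the wild type library of its set for the 9 genes and, at the right, the mean of 15 pan-endothelial genes; each point is 1 library, and KO2, KO3 and KO4 share WT2. Esm1, Plvap and Emcn lie below 0 in all 4 comparisons and Cd34 above, whereas Cxcr4 lies below 0 in set 1 and above 0 in set 2.

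Genotype was tested with limma, a linear model that shares the estimate of spread across genes, on log2(normalized count + 1) over all 15229 genes, with p-values adjusted by Benjamini-Hochberg and called under 0.05. With genotype as the sole term, 0 of 9 genes were called, beside 0.00657% of all genes. The differences of Esm1 and Plvap were the widest, at -1.77 ± 0.90 (SE; 95% interval -3.96 to 0.42) and -1.22 ± 0.55 (-2.57 to 0.12), with an adjusted p of 1.00 by limma for each of the 9. The others ran from -1.097 ± 0.95 for Emcn through Apln (-0.59 ± 0.39), Kcne3 (-0.40 ± 0.31), Cd93 (-0.33 ± 0.40), Cxcr4 (-0.25 ± 0.54) and Aplnr (-0.05 ± 0.44) to 0.32 ± 0.27 for Cd34. None of the 9 (0) had an unadjusted limma p under 0.05, beside 0.939% of all genes, and edgeR's quasi-likelihood test on recovered reads called 0, beside 0.00657%. DESeq2 also called 0 (adjusted p of 1.00 for both Esm1 and Plvap), beside 0.0463% of all genes. These 2 of 9 had an unadjusted DESeq2 p under 0.05, beside 1.44% of all genes. Differences were below 0 for 8 of the 9, against 49.8% of all tested genes, with a median of -0.40 against 0.00. Leaving out wild type 1 turned 6 of those 8 above 0 and left Esm1 and Plvap below it at -0.53 and -0.64, while leaving out wild type 2 gave -3.01 and -1.81.

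With the library set added to the model, called the set-adjusted fit from here on, the standard errors of Esm1 and Plvap were smaller and their differences were again below 0. Esm1 was -1.22 ± 0.20 (SE; 95% interval -1.71 to -0.73), Plvap -0.90 ± 0.18 (-1.36 to -0.44), Emcn -0.51 ± 0.19 (-0.995 to -0.02) and Cd34 0.45 ± 0.17 (0.02 to 0.87). limma called 0 of 9 (adjusted p of 0.999 for each), beside 0.00657% of all genes. At an unadjusted limma p under 0.05, short of the adjusted p, 3 of 9 were lower in knockout, against 2.12% of all genes. These were Esm1, Plvap and Emcn, and Cd34, 1 of 9, passed the same unadjusted level in the higher direction, against 1.39% of all genes. The interval of Emcn held 0 without wild type 1 or knockout 1 (-0.42 ± 0.27 in each case), wild type 2 (-0.65 ± 0.34) or knockout 3 (-0.53 ± 0.22). That of Cd34 held 0 without wild type 1 or knockout 1 (0.26 ± 0.20) or knockout 2 (0.38 ± 0.15), and without wild type 2 its difference was 0.72 ± 0.25. Apln (-0.39 ± 0.23), Kcne3 (-0.28 ± 0.24), Cd93 (-0.17 ± 0.32), Cxcr4 (-0.03 ± 0.43) and Aplnr (-0.01 ± 0.45) had intervals that held 0. edgeR called 0 of 9, beside 0.0131% of all genes, and had 4 at an unadjusted p under 0.05, beside 3.51%.

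The set-adjusted fit by DESeq2, on recovered reads, called 2 of 9 as lower in knockout, against 0.256% of all genes in that direction. These were Esm1, at -1.21 ± 0.23 (SE; DESeq2 adjusted p = 0.000137), and Plvap, at -0.88 ± 0.21 (adjusted p = 0.0116). The Esm1 call was lost without wild type 1 or without knockout 1 (DESeq2 adjusted p = 0.166 for the latter), which leave the comparison to set 2. It was kept without knockout 2, 3 or 4. For either gene, leaving out wild type 2 leaves knockout 1 against wild type 1 alone (Esm1 at -1.48). The spread of that fit comes from knockouts 2, 3 and 4. The Plvap call was lost without wild type 1, knockout 1 (DESeq2 adjusted p = 0.220) or knockout 3 (0.172), and kept without knockout 2 or 4. Its DESeq2 log2 difference was -0.97 without wild type 1 and -0.76 without wild type 2. It was -0.97 without knockout 1 and -0.90 without knockout 3, and all of these were near the -0.88 with all libraries. In set 2 alone the limma differences were -1.04 ± 0.26 for Esm1 and -0.99 ± 0.26 for Plvap, with 0 of 9 called, beside 0.00% of all genes. At an unadjusted limma p under 0.05 there were 3 of 9, beside 1.98% of all genes: these 2 and Cxcr4, at 0.74 ± 0.23 (adjusted p = 1.00).

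**Figure D3:**
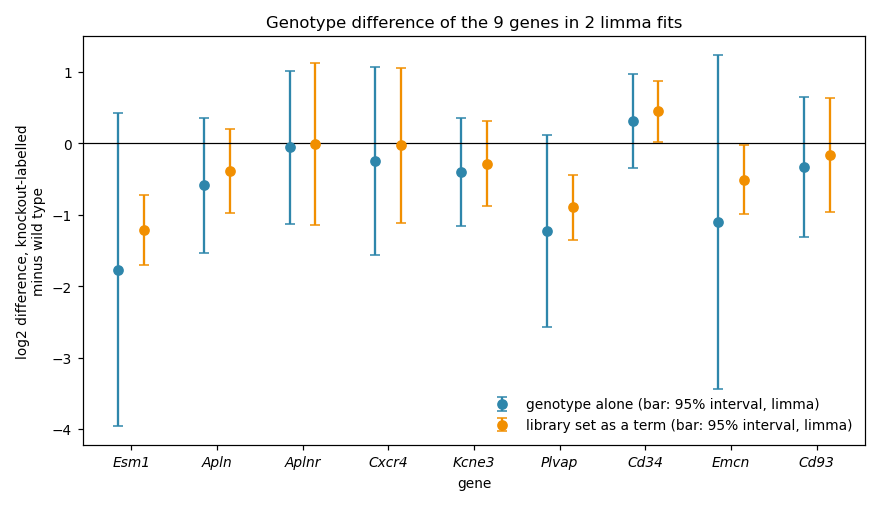
Log2 difference between knockout and wild type for the 9 genes by limma, with genotype alone and in the set-adjusted fit; points are estimates and bars are 95% intervals over the 6 libraries. In the set-adjusted fit the intervals of Esm1, Plvap and Emcn lie below 0 and that of Cd34 above 0, while those of the other 5 genes cross it.

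Whether the genotype difference itself differed between the library sets was tested with a term added after the Cxcr4 values were seen. Wild type 1, knockout 1 and wild type 2 are each the only library of their genotype in their set, so the spread in this test comes from knockouts 2, 3 and 4 alone. For Cxcr4 the difference in set 1 minus that in set 2 was -1.92 ± 0.36 (SE) by limma (95% interval -2.90 to -0.93), with an adjusted p of 0.999. For Apln it was -0.95 ± 0.28 (-1.71 to -0.18), and for Aplnr and Cd93 -1.36 ± 0.79 and -1.12 ± 0.49. limma called 0 of 9, beside 0.00% of all genes, and 2 of 9, Cxcr4 and Apln, had an unadjusted p under 0.05, beside 3.94% of all genes. DESeq2 called 1 of 9, Cxcr4, at -1.93 ± 0.44 (adjusted p = 0.0134), beside 0.177% of all genes, with the same single libraries behind it. Its ligand Cxcl12 was also lower in knockout 1 (3292, against 10039 in wild type 1). It was higher in knockouts 2 and 3 (9040 and 7896, against 6413 in wild type 2), and level in knockout 4 (6461). Pdgfrb, of the smooth muscle and pericyte list, had the same directions in knockouts 1, 2 and 3 but was lower in knockout 4. It read 14572 in wild type 1 and 6708 in knockout 1. In set 2 it read 12702 in wild type 2 against 22486, 19138 and 10958 in knockouts 2, 3 and 4. The share of all genes with these directions was not counted. A link between Cxcr4 and Cxcl12 was not tested.

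Because all 15 pan-endothelial genes were below 0 in both fits, each level was also set against the mean log2 level of the 15 pan-endothelial genes in the same library. That mean was 12.68 and 11.37 in wild types 1 and 2 and 11.98, 11.52, 11.24 and 10.77 in knockouts 1 to 4. The scale shifts all genes, with a median difference over all tested genes of 0.65 with genotype alone and 0.40 in the set-adjusted fit, so a value near 0 on it already lies below most genes.

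Plvap, relative to that mean, was 1.27 and 1.40 in the wild types and 1.21, 0.53, 0.62 and 0.68 in the knockouts (log2). It was the 1 of 9 genes with every knockout library below both wild types, as were 0.105% of all tested genes, though knockout 1 was lower than wild type 1 by only 0.06. Cd34 was 0.11 and 1.17 in the wild types and 1.54, 1.55, 1.44 and 1.89 in the knockouts. It was the 1 of 9 with every knockout library above both wild types, as were 3.70% of all tested genes. Esm1 stood at -0.04 and -1.20 in the wild types and at -0.82, -2.33, -2.42 and -1.38 in the knockouts, below the wild type of its set in all 4.

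In the set-adjusted limma fit on this relative scale, Esm1 was -0.82 ± 0.37 (SE), Plvap -0.50 ± 0.34 and Cd34 0.85 ± 0.34, and 0 of 9 were called, beside 0.210% of all genes. The difference of Emcn from the wild type of its set was 0.06 on this scale in knockout 1, above 0 rather than below it, and -0.26, -0.24 and -0.16 in knockouts 2, 3 and 4. Cxcr4 kept its opposite directions, at -0.47 in knockout 1 and 0.76, 1.01 and 1.04 in knockouts 2, 3 and 4. Cd93 likewise stood at -0.13 in knockout 1 and at 0.42, 0.55 and 0.46 in the others.

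**Figure D4:**
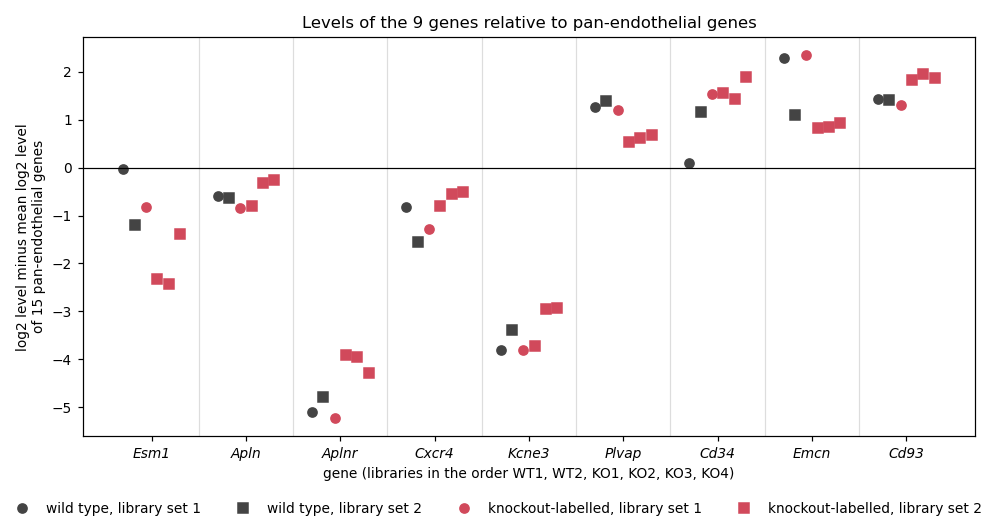
Log2 level of each of the 9 genes minus the mean log2 level of 15 pan-endothelial genes in the same library; each point is 1 library, in the order WT1, WT2, KO1, KO2, KO3, KO4, with colour for genotype and marker shape for library set. All 4 knockout points of Plvap lie below, and all 4 of Cd34 above, both wild type points.

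Other genes of sprouting were read from lists chosen with earlier results of these data known, and no gene of any list below was called by limma or edgeR. Of 26 tip cell genes, all tested, 19 were below 0 in the set-adjusted fit (limma median log2 difference -0.11, beside -0.00 and 50.7% below 0 over all tested genes). DESeq2 called 2 of them lower and 0 higher. These were Angpt2, an antagonist of the receptor Tek (-0.99 ± 0.20 by limma, DESeq2 adjusted p = 0.00651), and Flt4, a VEGF receptor shared with lymphatic cells (-1.01 ± 0.20, DESeq2 adjusted p = 0.00809). The VEGF receptor Kdr stood at -0.52 ± 0.13, Dll4 at -0.19 ± 0.22, the co-receptor Nrp1 at 0.32 ± 0.38 and the ligand Vegfa at 0.02 ± 0.10 by limma, and DESeq2 called none of these 4.

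Of 14 stalk and quiescence genes, 9 were below 0 in the set-adjusted fit (limma median -0.12). DESeq2 called 2 lower and 0 higher: Flt1, the decoy VEGF receptor that restrains sprouting (-0.97 ± 0.15 by limma, DESeq2 adjusted p = 0.00019), and Vwf, the clotting glycoprotein stored in endothelial cells (-0.82 ± 0.14, DESeq2 adjusted p = 0.00123). Both lists thus held genes called lower, and the 2 lists were not tested against each other. Flt1 read 9339 and 4732 in the wild types and 3854, 2724, 3136 and 2495 in the knockouts, with every knockout library below both wild types. Angpt2 read 21569 and 22699 in the wild types and 15504, 9494, 9118 and 8461 in the knockouts, and its groups also did not overlap, as for 2.32% of all tested genes.

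The partners of the surface genes were without a call. Of 12 genes of caveolae and diaphragms DESeq2 called 0 in either direction, with a limma median of -0.03 and 7 below 0; the caveolar coat genes Cav1 and Cavin1 stood at -0.06 ± 0.12 and -0.03 ± 0.09. Of 9 sialomucin genes 7 were tested, DESeq2 called 0 and the limma median was -0.00, with Podxl, a relative of Cd34, at -0.12 ± 0.24. Of 10 relatives and partners of Cd93 DESeq2 called 0, with a median of -0.02; its ligand Mmrn2 stood at -0.54 ± 0.19, the ligand Igfbp7 at 0.03 ± 0.16, and the related lectin-like receptors Clec14a, Thbd and Cd248 at -0.09 ± 0.33, 0.06 ± 0.44 and -0.28 ± 0.21.

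The partners of the receptors and of the channel subunit were likewise without a call. Of 13 genes around the apelin and Cxcr4 receptors 11 were tested and DESeq2 called 0 (limma median -0.09, 7 below 0). Cxcl12 stood at -0.48 ± 0.42 and the decoy receptor Ackr3 at -0.29 ± 0.33, and Apela, the second ligand of Aplnr, was at 0 in every library. Of 11 Kcne and Kcnq genes 5 were tested and DESeq2 called 0 (limma median -0.01); the channel Kcnq1, which Kcne3 joins, stood at 0.04 ± 0.47.

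Lists of cell type markers were read beside these genes. All 15 pan-endothelial genes were below 0 in both limma fits, with medians of -0.71 for genotype alone and -0.44 with the set adjusted, and DESeq2 called 0. All 6 tested lymphatic genes were below 0 in both (-1.19 and -0.97), and DESeq2 called 2 lower in the set-adjusted fit, Flt4 and Reln, a secreted protein of lymphatic endothelium (-1.33 ± 0.29 by limma, DESeq2 adjusted p = 0.0109). Summed lymphatic markers read 76205 and 54820 in the wild types and 54665, 29146, 25233 and 23983 in the knockouts, while the lymphatic chemokine Ccl21a was at 0 throughout. As with Esm1 and Plvap, every knockout library was below the wild type of its set, and the part of lymphatic cells in those differences was not tested. The 8 lung capillary genes had medians above 0, at 0.59 for genotype alone and 0.26 with the set adjusted, with 3 of 8 below 0 in each and 0 called. Their sums read 14838 and 10688 in wild types 1 and 2 and 10121, 17403, 12966 and 8302 in knockouts 1 to 4. Knockouts 1 and 4 were thus below the wild type of their set and knockouts 2 and 3 above it. With genotype alone and with the set adjusted, the medians were 1.21 and 0.12 for 11 macrophage and leukocyte genes, 0.62 and 0.07 for 10 fibroblast genes, -0.20 and 0.18 for 9 smooth muscle and pericyte genes, -0.23 and 0.24 for 6 mesothelial genes and 0.49 and -0.30 for 5 epithelial genes, with 0 called by limma, edgeR or DESeq2. Macrophage markers split by library set, with sums of 5224 and 4232 in wild type 1 and knockout 1 and 29055 to 47336 in the other 4, and mesothelial markers were highest in knockout 1, at 63232.

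The genes whose pattern over the 6 libraries was closest to each of the 9 were taken by the root mean square difference of centred log2 values, over 11360 genes that averaged 100 normalized counts or more. Closest to Esm1 were Slc9a2 (0.29), F2rl1 (0.33) and Srpx2 (0.33) and these distances were the widest among the 9 genes. Closest to Plvap were Mall (0.12), Eng (0.13) and Vwf (0.15), to Emcn Mmrn2 (0.16), Add2 (0.19) and Sdcbp2 (0.19), and to Cd93 Sh2b3 (0.06), Tek (0.07) and Sh2d3c (0.10). Closest to Cd34 were Mob3c (0.09), Actn3 (0.10) and Crebl2 (0.12). Among the tip cell genes the nearest to Apln were Doc2b (0.08), Col5a3 (0.09) and Jag1 (0.10), to Aplnr Emilin1 (0.05), Nox4 (0.07) and Pgf (0.11), to Cxcr4 Sox17 (0.11), Rapgef4 (0.12) and Prr5l (0.16), and to Kcne3 Angptl4 (0.11), B4galt2 (0.14) and Cdr2l (0.14). These likenesses rest on 6 libraries that differ mainly by set, and describe those libraries only.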

How the data were processed

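The authors deposited 1 table of normalized counts (a signal: read counts divided by a size factor per library) for 53735 genes in 6 libraries. Per the submitters' processing notes, reads were handled with Trimmomatic 0.36, STAR 2.6.0c and featureCounts of Subread 1.6.1 on GRCm38.p6; the series design text names Trimmomatic 0.32, STAR 2.4.2a, HTSeq with GENCODE M17 and DESeq2 1.10.1. Which of these made the deposited table, and the strand setting, are not given in the sources used here; the TruSeq RNA v2 kit named there does not mark strand. The annotation used here for positions and exon lengths is of GRCm38.

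Dividing each column of the deposited signal by the value of 1 read gave whole reads for 100% of values (tolerance 1e-06). limma 3.58.1 was fitted on log2(normalized count + 1) for genes with a mean of at least 10, with genotype alone and with the library set added; edgeR 4.0.16 and DESeq2 1.42.0 (R 4.3.3) were run on the recovered reads. Other pseudocounts, filters, scalings, left-out libraries and the title numbers as a block were tried. Replicates were compared by a chi-square test of their reads and none was a repeat of another. The fits were tested on simulated data. 0 columns of samples were left unused. The 9 genes, the lists and the tests were chosen with earlier results of these data known. All 9 genes are named, along with genes of the other lists that a fit called, the direct partners of the 9 and the 3 genes nearest to each in pattern.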

Additional observations from a re-analysis of the deposited data

Results flagged for a closer look

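In the 4 knockout libraries, a gene was singled out where the gap between its highest or lowest library and the nearest other, divided by the range of the group, exceeded Dixon's 95% critical value, which chance gives in about 1 of 20 groups. Of 29 genes tested, 9 were singled out, 3 of them among the 9 tip cell and surface genes. The knockout libraries come from both library sets, so the rate of 1 in 20 is no yardstick for these counts. In 8 of the 9 the library apart was knockout 1, the only knockout library of set 1. The share of all tested genes that pass this rule was not counted. Over all of them, 30.7% had set 1 wholly above set 2 and 32.7% wholly below. In those genes knockout 1 lies outside the range of the other knockouts, by any margin. Whether gaps as wide as the flagged ones are particular to these genes was not tested. Esm1 read 2289 normalized counts in knockout 1 and 451 to 668 in knockouts 2, 3 and 4, and Emcn 20465 against 3340 to 5254. Of the other genes, Angpt2 read 15504 in knockout 1 (8461 to 9494 in the rest), Vwf 2939 (819 to 971), Mmrn2 8648 (1816 to 2760), Cav1 35742 (9003 to 11505), Cavin1 25918 (12947 to 14680) and Reln 4787 (1176 to 1506). Cxcr4 was the exception, with knockout 4 apart at 1223 and the other knockouts at 1652 to 1696.

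The genotype difference of Cxcr4 differed between the library sets by -1.93 in DESeq2's test of that difference, a test whose spread comes from knockouts 2, 3 and 4 alone. In limma the same term was not called.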

How the results depend on the processing

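The library sets were defined from the data, and set 1 holds 1 library per genotype. Differences of Aplnr and Kcne3 also rest on few reads. No other pseudocount, filter, TMM scaling or test without the mean trend changed the number of the 9 genes called (0) or turned a direction, though without the trend 2 in place of 4 genes of the set-adjusted fit had an unadjusted p under 0.05. With the library set in the model, limma and edgeR called 0 of the 9 and DESeq2 called 2. With DESeq2 the number ran from 0 to 2 when 1 knockout library was left out, an alternative chosen after seeing the data. It was 0 without knockout 1, 1 without knockout 3 and 2 without knockout 2 or 4. Leaving out wild type 1 leaves the comparison to set 2, and leaving out wild type 2 leaves knockout 1 against wild type 1 alone. For the difference between the sets DESeq2 called 1 and limma 0.

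Of the genes that kept their direction, Esm1 and Plvap with genotype alone ran from -3.01 to -0.53 and from -1.81 to -0.64 with 1 library left out, and Cd34 in the set-adjusted fit from 0.26 to 0.72. Directions turned as follows (log2). With genotype alone, leaving out 1 library gave ranges of -1.27 to 0.77 for Cxcr4, -0.55 to 0.44 for Aplnr, -1.001 to 0.336 for Cd93, -2.35 to 0.15 for Emcn, -0.857 to 0.048 for Kcne3 and -1.26 to 0.0922 for Apln, each highest without wild type 1. In the set-adjusted fit the ranges were -1.18 to 0.74 for Cxcr4, -0.83 to 0.53 for Aplnr and -0.84 to 0.28 for Cd93, and set 2 alone gave 0.74, 0.53 and 0.28. The same fit in DESeq2 gave 0.75 for Cxcr4, 0.61 for Aplnr, 0.31 for Cd93 without wild type 1 or knockout 1, 0.0150 and 0.0159 for Kcne3, and 0.11 for Aplnr without knockout 4. For Aplnr with all libraries, edgeR gave 0.0037 and DESeq2 0.00013. Relative to the pan-endothelial genes, genotype alone gave 0.40 for Cxcr4, 0.60 for Aplnr, 0.32 for Cd93, 0.25 for Kcne3 and 0.0644 for Apln, and the set-adjusted fit gave 0.37, 0.39, 0.23, 0.12 and 0.0108. The relative scale shifts every gene by the same amount within a fit. Its median difference over all tested genes was 0.65 with genotype alone and 0.40 in the set-adjusted fit. Without wild type 1 or knockout 1, the set-adjusted difference is that of set 2 alone. The cause of the differences between libraries behind these turns was not tested.

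The title numbers were not taken to pair the libraries, since only 2 are shared between the genotypes and no label gives them a meaning. Across genes, deviations from the group mean correlated at r = 0.84 for knockout 1 with wild type 1 and at 0.56 for knockout 2 with wild type 2, which share a number, but also at 0.67 and 0.53 for knockouts 3 and 4 with wild type 2, which do not. With the number as a replicate block, limma called 0 of the 9 and 0 genes in all, and Aplnr turned to 0.0934.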
